A study of Mus musculus with 2 samples.

Results

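Steroid synthesis and steroid conversion genes were examined in cells taken from mouse fat and treated in culture to differentiate. The 10 genes are Star, Stard3, Tspo, Cyp11a1, Fdx1, Akr1c18, Akr1b7, Akr1b8, Srd5a1 and Hsd11b1. All 10 were found on the arrays through their RefSeq transcript, among 20884 genes named in this way. They were selected on their processed signals and background calls on these same arrays, so their differences are given as descriptions.

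Each of the 2 samples was total RNA from cells of the epididymal fat of male C57/BL mice, hybridised to 1 single-colour Agilent array. After collagenase digestion, the small proliferative adipocytes were the cells that first floated and then sedimented in a second spin at 226 g, while the lower phase of an earlier spin at 9 g gave the stromal vascular cells. Both were grown in DMEM to 90% confluency, kept for 3 days with insulin, dexamethasone and IBMX, and then for 2 days in DMEM alone. SPAD stands below for the small proliferative adipocytes after differentiation, and SVCD for the stromal vascular cells treated in the same way. Both populations had thus been given dexamethasone, a synthetic glucocorticoid, and IBMX, which raises cyclic AMP. The sources used here do not give the number of animals or cultures behind each RNA, and no test was possible with 1 array for each group.

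Steroid hormones are made from cholesterol. StAR moves cholesterol into the mitochondrion, where the cytochrome P450 enzyme CYP11A1 cuts its side chain to give pregnenolone, with electrons passed on by ferredoxin (Fdx1). Later enzymes, among them reductases of the aldo-keto reductase family, convert, activate or inactivate the products. Fat tissue is better known for converting steroids that reach it from the blood, above all glucocorticoids, than for making them from cholesterol.

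Values are processed intensities, which are background-subtracted spot brightnesses on a linear scale. A log2 difference is SPAD minus SVCD after each array was scaled to its 75th percentile of intensity, which was 622 for SPAD and 678 for SVCD. For a probe printed once, the error behind the sign ± is the SD of spot-to-spot error on the log2 scale, taken from probes printed 10 times and read at the signal of each array. For a probe printed 10 times it is that SD divided by the square root of 10, a standard error of the mean over spots, and is marked SE. A gene is called detected on an array where its probe was well above background there. The error covers neither differences between cultures nor between labelling reactions. The 12 probes of the 10 genes took up 30 spots on each array, and none was saturated or marked as an outlier. Scaling to the 8 spike-in control probes well above background instead gave every difference measured on both arrays a shift of -0.84, so any difference between 0 and that size changes its sign under that scaling. In bulk RNA, fewer cells of a type and less RNA per cell cannot be told apart.

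The genes fell into 3 kinds. Star, Akr1c18 and Hsd11b1 were far brighter in SPAD, 5 genes lay under 2-fold, and Cyp11a1 and Akr1b7 were barely above background on the SVCD array and not well above background on the SPAD array. Of the 8 members detected on each array, SPAD exceeded SVCD by 2-fold or more in 3, beside 14.4% of the 14077 genes detected on both arrays. None was at least 2-fold lower, beside 13.3% of those genes. With spike-in scaling Akr1b8 passed 2-fold downwards (-1.17) while the same 3 stayed at least 2-fold higher. Over the 14077 genes the shares were then 5.19% higher and 38.1% lower. Cyp11a1, which is not among these 8 members, also passed 2-fold downwards with that scaling, by its bound of -1.50. The median log2 difference was 0.87 over these 8 members and 0.07 over the 14077 genes. The contrast served to choose the members, so nothing is read from these counts.

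**Figure D1:**
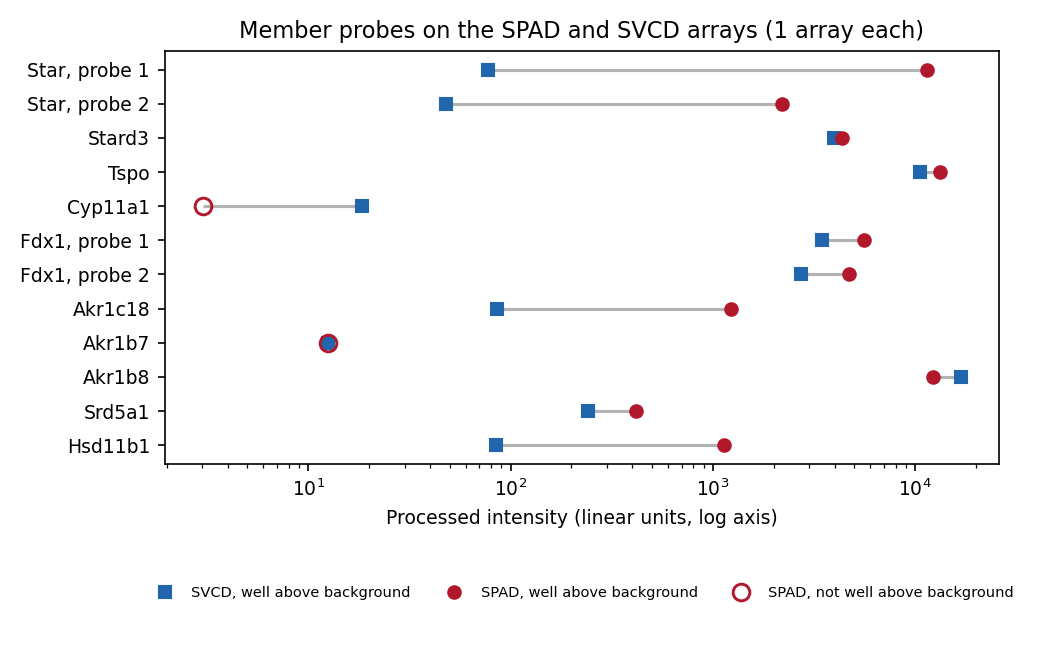
Processed intensity of each member probe in SPAD (red circles) and in SVCD (blue squares), on a log axis; open symbols are not well above background, and a grey line joins the 2 values of a probe. Star, Akr1c18 and Hsd11b1 have long lines with SVCD intensities below 100, whereas Stard3, Tspo, Fdx1, Akr1b8 and Srd5a1 have short ones.

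The sequence before the start of transcription is shown for the members whose data it helps to set side by side. These are Akr1c18 and Hsd11b1, which were much brighter in SPAD, and Fdx1, which was brighter in SPAD by less than 2-fold. The others are the neighbouring paralogs Akr1b7 and Akr1b8, of which 1 was close to background and the other bright. The RefSeq promoter table (build GRCm38.p6) held entries for 8 of the 10 genes, and the 2 without one were Star and Tspo. The 250 bases before each listed start are printed 5′ to 3′ on the strand of the gene. Capitals mark matches, on either strand, to any of 7 short motifs. These are a loose form of the half-site of the steroidogenic factors of the NR5A family (AAGGTNA), the half-site of glucocorticoid and related steroid receptors (AGAACA), the C/EBP core (TTGCNNAA), the half-site of the cyclic AMP response element (TGACG), the CCAAT box (CCAAT), the GC box (GGGCGG) and the TATA box (TATAAA). N stands for any base. The places are chr13:4150647-4150896 on the minus strand for Akr1c18, chr1:193242361-193242610 on the minus strand for Hsd11b1, chr9:51963603-51963852 on the minus strand for Fdx1, chr6:34412112-34412361 on the plus strand for Akr1b7 and chr6:34353896-34354145 on the plus strand for Akr1b8.
Akr1c18: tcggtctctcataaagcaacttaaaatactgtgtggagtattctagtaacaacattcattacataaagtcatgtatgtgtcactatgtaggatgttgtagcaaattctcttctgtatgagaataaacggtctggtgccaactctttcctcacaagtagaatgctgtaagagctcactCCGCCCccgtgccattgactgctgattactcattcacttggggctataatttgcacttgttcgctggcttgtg
Hsd11b1: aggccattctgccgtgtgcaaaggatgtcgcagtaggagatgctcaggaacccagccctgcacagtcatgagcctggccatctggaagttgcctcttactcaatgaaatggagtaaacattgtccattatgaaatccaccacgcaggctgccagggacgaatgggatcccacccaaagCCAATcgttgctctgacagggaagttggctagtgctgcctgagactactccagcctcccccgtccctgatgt
Fdx1: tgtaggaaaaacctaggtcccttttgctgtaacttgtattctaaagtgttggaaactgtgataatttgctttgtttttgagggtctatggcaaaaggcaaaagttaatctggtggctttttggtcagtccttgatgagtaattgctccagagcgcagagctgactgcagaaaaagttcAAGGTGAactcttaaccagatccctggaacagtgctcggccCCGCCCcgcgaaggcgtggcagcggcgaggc
Akr1b7: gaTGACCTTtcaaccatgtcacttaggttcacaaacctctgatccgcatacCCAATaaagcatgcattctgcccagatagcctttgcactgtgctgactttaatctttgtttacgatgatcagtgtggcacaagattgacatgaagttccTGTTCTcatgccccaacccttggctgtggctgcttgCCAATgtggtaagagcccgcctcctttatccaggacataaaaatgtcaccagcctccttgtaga
Akr1b8: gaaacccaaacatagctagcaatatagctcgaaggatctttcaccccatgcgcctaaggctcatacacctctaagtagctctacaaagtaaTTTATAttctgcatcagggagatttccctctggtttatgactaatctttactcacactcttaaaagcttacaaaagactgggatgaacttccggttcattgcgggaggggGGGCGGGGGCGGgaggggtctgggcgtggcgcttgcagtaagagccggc

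Akr1c18 held 1 GC box, 73 bases before its start, and none of the other motifs. Hsd11b1 held a CCAAT box 72 bases before its start and none of the others. Fdx1 held a match to the loose NR5A half-site (AAGGTGA) 72 bases before its start and a GC box at 31 bases. Akr1b7 held a match to the loose NR5A half-site (TGACCTT, on the other strand) 248 bases before its start. It also held a steroid receptor half-site at 100 bases and CCAAT boxes at 199 and 64 bases. Akr1b8 had 2 adjoining GC boxes, at 49 and 43 bases, and a TATA box letter run on the other strand at 159 bases. Of the members whose sequence is not printed, Stard3 held GC boxes at 80, 70, 29 and 15 bases and a CCAAT box at 40. Srd5a1 held GC boxes at 157, 86 and 16 bases and a CCAAT box at 111. Cyp11a1 held a half-site of the cyclic AMP response element at 50 bases and a CCAAT box at 24 before its first listed start. Before its other start it held a C/EBP core at 132 bases. Over all 32851 promoter entries of this length, 11.8% held the loose NR5A half-site and 16.1% the steroid receptor half-site. The C/EBP core was in 9.56% and the half-site of the cyclic AMP response element in 17.8%. The shares were 33.8% for the CCAAT box, 32.7% for the GC box and 12.4% for the TATA box. A match describes letters only, and which start was used in these cells is not known from the arrays.

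The promoters also differed in CG pairs, whose median was 6 per 250 bases over all entries, with quartiles of 2 and 16. The windows of Srd5a1 and Stard3 held 20 and 15 CG pairs, those of Akr1b8 and Fdx1 held 9 and 8, and those of Hsd11b1 and Akr1c18 held 6 and 5. The window of Akr1b7 held 3, and the 2 listed starts of Cyp11a1 had 4 and 1. These counts are a description of 8 genes. Star and Tspo had no entry, and the members were chosen on these same arrays. No link between CG pairs and the array differences is read from the counts.

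Star encodes the carrier that delivers cholesterol to the inner mitochondrial membrane, the step that limits steroid synthesis. Its brighter probe read 11393 in SPAD and 77.0 in SVCD, and its other probe 2193 and 47.9. Both probes were well above background on both arrays, and both were high in SPAD and dim in SVCD. Before background subtraction the SVCD spots had median brightnesses of 125 and 89 over a local background of 28. The scaled difference was 7.33 ± 0.12 (161-fold) on the brighter probe and 5.64 ± 0.12 (49.9-fold) on the other, so the probes disagreed in size by far more than the spot error but not in direction. With spike-in scaling the brighter probe gave 6.49, and with another background correction (normexp) 6.57.

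Of the 14077 genes detected on both arrays, 2 had a larger difference than the brighter Star probe. The genes next to Star in this order were Car3, a carbonic anhydrase (log2 difference 8.56), Cfd, the adipocyte protease adipsin (7.34), the chaperone gene Hspa1a (7.33) and the cytochrome P450 gene Cyp4b1 (6.74). The measure of likeness here is the difference between 2 arrays alone. Cfd, Star and Hspa1a lay closer to each other than the spot error of any of them.

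**Figure D2:**
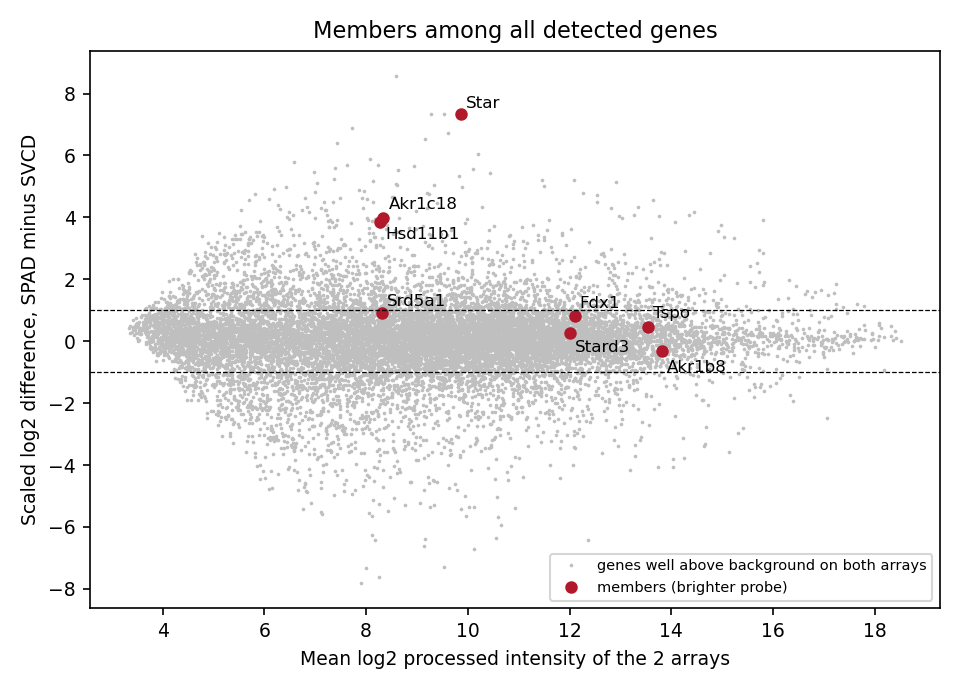
Scaled log2 difference, SPAD minus SVCD, against the mean log2 intensity of the 2 arrays for the 14077 genes well above background on both arrays (grey), with the 8 members among them in red by their brighter probe; dashed lines mark 2-fold. Star stands near the upper edge of all genes at 7.33, Akr1c18 and Hsd11b1 lie together near 4, and the other 5 lie between the dashed lines.

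Stard3 and Tspo, the other members that handle cholesterol before the first enzyme, differed little. Stard3 encodes a relative of StAR on late endosomes, and its probe read 4325 in SPAD and 3950 in SVCD. Tspo encodes a cholesterol-binding protein of the outer mitochondrial membrane, and its probe read 13260 in SPAD and 10622 in SVCD. Both genes were bright on both arrays and slightly brighter in SPAD. Scaled, Stard3 differed by 0.26 ± 0.08, which turned to -0.58 with spike-in scaling. Tspo differed by 0.45 ± 0.08, which turned to -0.39. Among all genes detected on both arrays, 73.6% were at least as far apart as Stard3, in either direction, and 57.1% as far apart as Tspo.

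Cyp11a1, the side-chain cleavage enzyme, was close to background. Its single spot read 3.01 in SPAD, not well above background, and 18.6 in SVCD, well above background. Before background subtraction the spots read 29 and 44, over local backgrounds of 28 and 26. SPAD was thus at background and SVCD slightly above it. Set against the dimmest probe well above background on the SPAD array (10.8), Cyp11a1 was at least 1.58-fold lower in SPAD. This bound, -0.66 ± 0.50 on the log2 scale, does not reach 2-fold. It was -1.50 with spike-in scaling and -0.12 with normexp.

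Fdx1, the ferredoxin that supplies electrons to mitochondrial P450 enzymes, was bright on both arrays. Its brighter probe read 5584 in SPAD and 3458 in SVCD, and its other probe 4704 and 2730. Both probes were higher in SPAD, by 0.82 ± 0.08 and 0.91 ± 0.08, and thus differed from each other by less than their combined spot error. With spike-in scaling the brighter probe turned to -0.02. Of all genes detected on both arrays, 35.0% were at least as far apart.

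Among the enzymes that convert steroids, Akr1c18 and Hsd11b1 were much brighter in SPAD. Akr1c18 encodes an aldo-keto reductase that inactivates progesterone, and its spot read 1235 in SPAD and 85.5 in SVCD. The difference was 3.98 ± 0.12 (15.8-fold), with 83 of 14077 genes further up. The SVCD spot had a median brightness of 92 over a local background of 32, so it was dim but well above background. The difference was 3.14 with spike-in scaling and 3.15 with normexp.

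Hsd11b1 encodes the enzyme that regenerates active glucocorticoid from its inactive keto form inside fat and liver cells. Its probe was printed 10 times. In SPAD the spots read from 1062 to 1193, with a median of 1133, and in SVCD from 68.7 to 97.7, with a median of 87.3. The spots of the arrays did not overlap, and all 10 SVCD spots were well above background. The scaled difference per spot ran from 3.66 to 4.15, with an SD of 0.14 over the spots, and the difference of the means was 3.86 ± 0.04 (SE over 10 spots; 14.5-fold). Here 96 genes lay further up, and the difference was 3.02 with spike-in scaling and 3.14 with normexp. Hsd11b1 and Akr1c18 thus differed from each other by no more than the spot error of Akr1c18.

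**Figure D3:**
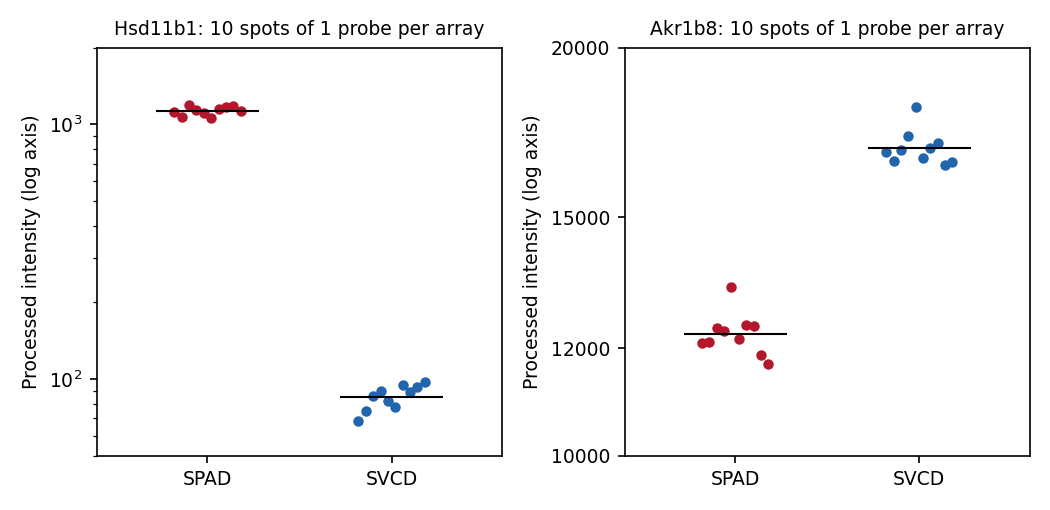
Processed intensity, on log axes, of the 10 spots of the Hsd11b1 probe and of the Akr1b8 probe in SPAD (red) and in SVCD (blue), with the geometric mean of the spots as a line; spots are repeats on 1 array and not replicate samples. Hsd11b1 spots lie at 1062 or more in SPAD and at 97.7 or less in SVCD, while Akr1b8 spots differ by a small step in the other direction.

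Srd5a1 encodes the reductase that turns testosterone into the more potent dihydrotestosterone. Its spot read 419 in SPAD and 241 in SVCD, below the 75th percentile of either array. The scaled difference of 0.93 ± 0.09 (1.90-fold) lay just under 2-fold, and 30.4% of all genes detected on both arrays were at least as far apart. With spike-in scaling it was 0.09.

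Akr1b8 and Akr1b7 are aldo-keto reductase genes that lie close together, with Akr1b10 between them. Akr1b8 encodes a reductase of aldehydes that include retinal. Its 10 spots read from 11691 to 13308 in SPAD, with a median of 12275, and from 16373 to 18098 in SVCD, with a median of 16786. It was bright on both arrays and lower in SPAD in every spot. The scaled difference was -0.33 ± 0.03 (SE over 10 spots), the only negative one among the 8 members detected on both arrays, and -1.17 with spike-in scaling. Akr1b7, named after its protein in the vas deferens and also made in the adrenal cortex, read 12.6 on both arrays. It was called well above background in SVCD alone, although the intensities were the same, and no fold is given.

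**Figure D4:**
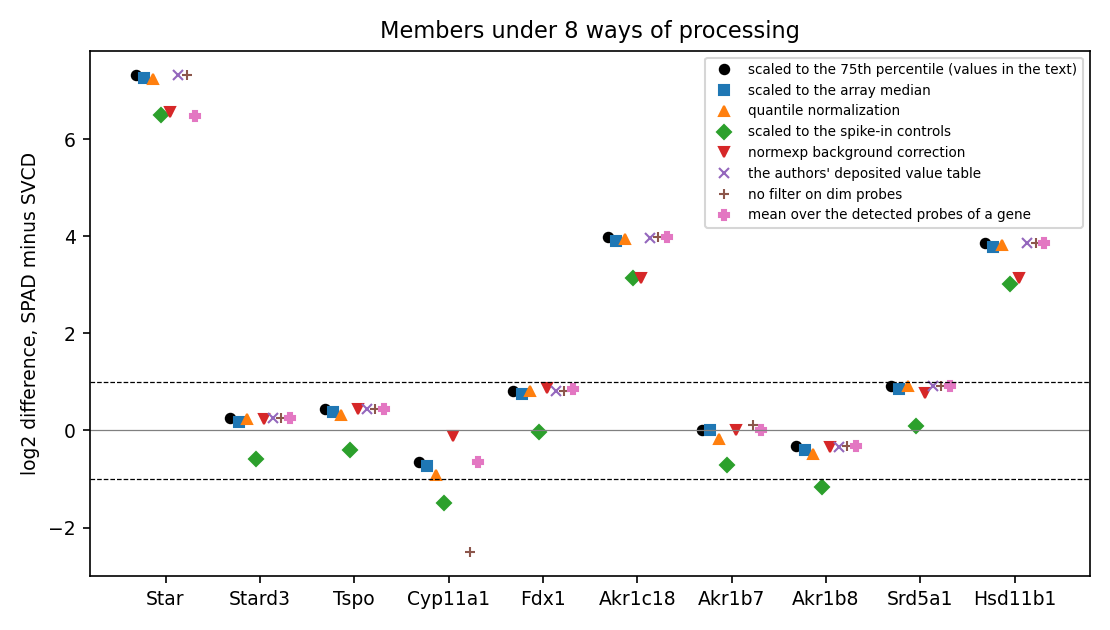
Log2 difference, SPAD minus SVCD, of the 10 members under 8 ways of processing, with 2-fold marked by dashed lines; Cyp11a1 and Akr1b7 are bounds except without a filter on dim probes. Star, Akr1c18 and Hsd11b1 stay above 3 in every setting, while Stard3, Tspo and Fdx1 fall below 0 with spike-in scaling.

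The wider pathway was read from 5 lists of related genes that are not members, 79 in all. Of these, 77 had a probe and 61 were well above background on at least 1 array. Among the 61, 16 passed 2-fold upwards in SPAD, 8 passed it downwards and 37 lay under 2-fold. The counts upwards and downwards were 6 and 23 with spike-in scaling and 8 and 2 with normexp. With the main scaling, the shares over the 15632 genes detected on either array were 16.3% higher and 14.1% lower. Over the genes detected on both arrays they were 5.19% and 38.1% with spike-in scaling, and 9.81% and 9.50% with normexp. The median of the related genes was 0.35, taking the bound for a gene seen by a single array, against 0.06 over the 15632 genes. With spike-in scaling it was -0.49, against -0.77 over the 14077 genes detected on both arrays.

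In cholesterol delivery, 3 of 11 detected genes passed 2-fold upwards in SPAD and 1 downwards, with a median of 0.40. Stard6, a small relative of Star, read 127 in SPAD and 43.2 in SVCD (1.68 ± 0.38, and 1.56 on its other probe). Scarb1, the receptor that takes up cholesterol from high-density lipoprotein, read 5027 and 2205 (1.31 ± 0.08, and 1.41 on its other probe). Lipe, the hormone-sensitive lipase that also frees stored cholesterol esters, read 66.0 and 28.6 (1.33 ± 0.38). Stard5, a cytosolic sterol carrier, was lower on its brighter probe (-1.24 ± 0.11), but its other probe gave 0.00. Scarb1 and Stard6 thus passed 2-fold on both of their probes, and Stard5 on 1 of its 2.

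Among the P450 enzymes, their electron donors and the dehydrogenases that form progesterone, 3 of 12 detected genes were at least 2-fold higher and 3 lower, with a median of -0.06. Cyb5a, the cytochrome that aids several P450 reactions, read 120475 in SPAD and 23010 in SVCD (2.51 ± 0.08). Hsd3b1, which turns pregnenolone into progesterone, was well above background in SPAD alone, at 36.8 against 4.12, and at least 4.67-fold higher. Cyp7b1, which hydroxylates oxysterols and steroids, was lower in SPAD, at 25.6 against 199 (-2.83 ± 0.36). Cyp11b1, of corticosterone synthesis, was dim on both arrays, at 12.8 and 39.2 (-1.49 ± 0.50). Named here after their values were seen, Fdxr, the reductase that feeds electrons to Fdx1, read 1991 and 949 (2.29-fold higher), Cyp27a1, a sterol hydroxylase, differed by -1.33 ± 0.16 (SE over 10 spots), and Cyp17a1, which starts androgen synthesis, read 2798 and 4926 (-0.69 ± 0.08). Hsd3b2, Cyp11b2 and the aromatase gene Cyp19a1 were detected on neither array.

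Of the other hydroxysteroid dehydrogenases, steroid reductases and conjugating enzymes, 2 of 13 detected genes were at least 2-fold higher, none was lower by that much, and the median was 0.35. Hsd17b1, which makes estradiol from estrone, read 62.5 in SPAD and 16.5 in SVCD (2.05 ± 0.38). Hsd17b2, which works in the opposite direction, was detected in SPAD alone and was at least 2.47-fold higher. H6pd, which supplies the NADPH that drives the Hsd11b1 enzyme, read 6851 and 3805 (0.97 ± 0.08), and Hsd17b12, also of fatty acid elongation, 5264 and 3284 (0.81 ± 0.08). Hsd11b2, which inactivates glucocorticoids, was detected on neither array.

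Of the other aldo-keto reductases, 3 of 8 detected genes were at least 2-fold higher and 2 lower, with a median of 0.11. The genes beside Akr1c18 on its chromosome were higher in SPAD: Akr1c14 read 103 against 40.3 (1.48 ± 0.38) and Akr1c13 read 10534 against 4624 (1.31 ± 0.08). Akr1c12, added here after its value was seen, differed by 1.22 ± 0.09. Akr1c19, of the same cluster, was detected in SVCD alone and was at least 2.56-fold lower in SPAD. Beside Akr1b7 and Akr1b8, Akr1b10 read 1534 in SPAD and 5026 in SVCD (-1.59 ± 0.08, and -1.60 on its other probe). Genes of these clusters are similar in sequence, and whether a probe also binds a neighbour's transcript was not tested.

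Of the regulators and steroid receptors, 5 of 17 detected genes were at least 2-fold higher and 2 lower, with a median of 0.28. Mrap, the partner that brings the corticotropin receptor to the cell surface, read 328 in SPAD and 72.8 in SVCD (2.30 ± 0.12), whereas the receptor gene itself, Mc2r, was detected on neither array. Crem, a transcription factor gene of the cyclic AMP response, read 1236 and 364 (1.89 ± 0.09, and 0.83 on another detected probe). Pgr, the progesterone receptor, read 240 and 79.5 (1.72 ± 0.12, and 2.71 on its other probe). Nr5a2, a relative of steroidogenic factor, was detected in SPAD alone, at 31.9 against 6.44, and was at least 4.04-fold higher. That bound has a spot error of 0.50 on the log2 scale, and the other Nr5a2 probe was detected on neither array. Named after their values were seen, the others past 2-fold were Creb1 (1.20, and 1.31 on its other probe), Gata4 (-1.34) and Gata6 (-1.03), and steroidogenic factor itself, Nr5a1, read 83.0 and 148 (-0.71 ± 0.14).

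**Figure D5:**
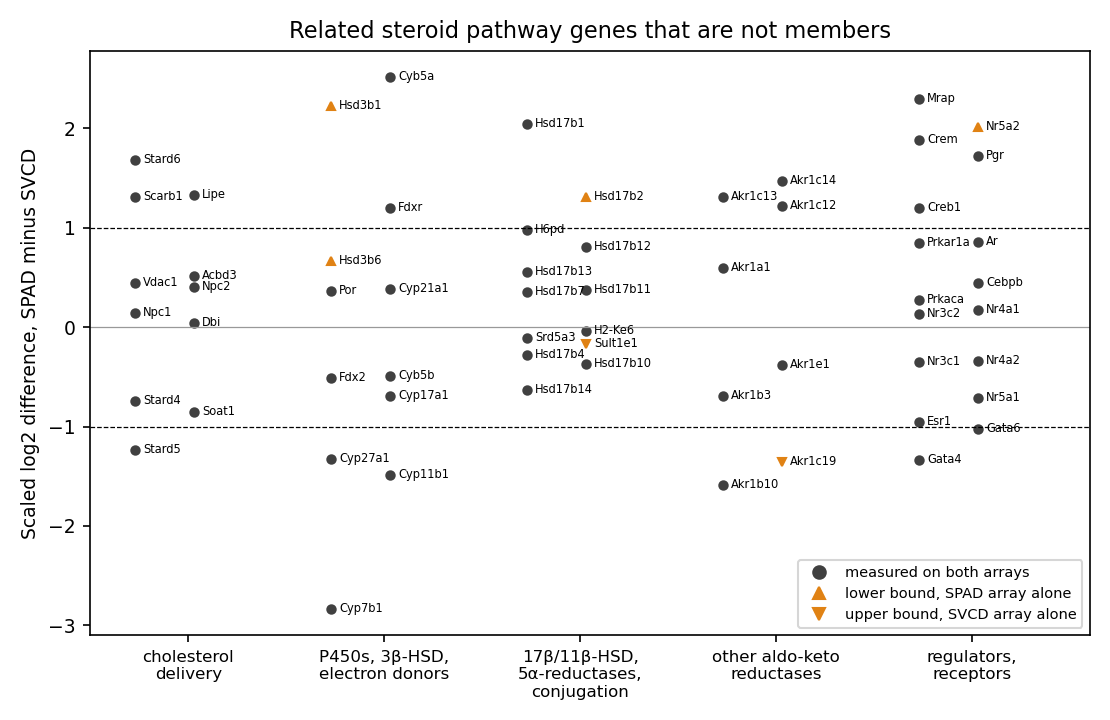
Scaled log2 differences, SPAD minus SVCD, of the 61 detected related genes in their 5 lists, with genes measured on both arrays as dots and bounds of genes detected on 1 array as triangles; dashed lines mark 2-fold. Each list but the dehydrogenases and reductases has genes beyond both dashed lines.

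Markers of the cell types that the cultures could hold also differed between the arrays. The adipocyte list had 7 of 8 genes detected, each past 2-fold upwards in SPAD, among them Cfd, Plin1 (4.17), Adipoq (4.02) and Cidec (3.59, and -0.00 on its other, dim probe). Lep, which encodes leptin, was detected on neither array. The summed intensity of the detected adipocyte markers was 119946 in SPAD and 31948 in SVCD. Most of both sums came from Fabp4, named after its value was seen, which read 108495 in SPAD and 31257 in SVCD (1.92 ± 0.08). Of 8 endothelial markers, 7 passed 2-fold upwards in SPAD, with Sox17 (3.74), Erg (3.43), Robo4 (3.41) and Esam (3.23) in front, and sums of 17882 and 5063. Sox17 and Erg had other probes at 2.83 and a bound of 2.44. The exception, Kdr, named after its value was seen, differed by -0.49 on its brighter probe and by -1.94 on its other probe, past 2-fold downwards. Macrophage markers had 5 of 7 detected genes at least 2-fold lower in SPAD, with sums of 120449 and 202712. They included Fcgr1 (at least 34.6-fold), Aif1 (-4.72), Csf1r (-4.07, and -4.03 and -1.64 on its other probes), C1qa (-3.19) and, named after its value was seen, Adgre1 (-1.32, and -1.03 on its other probe). The other detected macrophage markers, also named after their values were seen, lay above 0 with the main scaling and below 0 with spike-in scaling. Lyz2, which makes up most of the SPAD sum, read 98429 in SPAD and 84459 in SVCD (0.35 ± 0.08), and Cd14 differed by 0.11 ± 0.08. Smooth muscle markers had 4 of 5 lower, with sums of 15369 and 213309 and Cnn1 (-5.35), Acta2 (-3.77), Tagln (-3.59) and Actg2 (-3.57) among them. The fifth, Myh11, named after its value was seen, read 218 in SPAD and 162 in SVCD (0.55 ± 0.12, and below 0 with spike-in scaling). Mesothelial markers had 3 of 6 lower, with sums of 1239 and 10683, and held Krt18 (-5.41), Msln (-4.55), Lrrn4 (at least 7.97-fold) and Wt1 (-0.73). The part of these cell types in the members' differences was not tested.

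Cells of the testis, adrenal cortex and epididymis are other places where members are made. Of 9 adrenocortical and Leydig cell markers, 8 had a probe and 6 were detected, with summed intensities of 3020 in SPAD and 5185 in SVCD, mostly from Cyp17a1. The receptor genes Lhcgr and Mc2r were detected on neither array, and Hsd3b1, Cyp11b1, Nr5a1 and Cyp17a1 have the values given above. Named after their values were seen, the other detected markers were Cyp21a1 and Hsd3b6. Cyp21a1 read 76.9 in SPAD and 64.3 in SVCD (0.38 ± 0.14), and its other probe was detected on neither array. Hsd3b6 was detected in SPAD alone, with a bound of 0.66. Of 9 markers of the epididymis and vas deferens epithelium, 4 were detected, with sums of 319 and 1292. The epithelial genes Krt8 (-5.57), Cdh1 (a bound of -2.07) and Epcam (a bound of -1.06) were lower in SPAD, and Rnase10 read 293 in SPAD and 203 in SVCD (0.66 ± 0.12). The markers Lcn5, Lcn8, Crisp1, Adam7 and Cst8 were detected on neither array.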

How the data were processed

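RNA from 1 SPAD and 1 SVCD sample, 30 ng each, was labelled with Cy3 per the labels' protocols and hybridised to arrays on 1 slide. The submitters' processing notes name Agilent Feature Extraction 10.7.3.1. Scanner output as deposited holds linear, background-subtracted intensity values, per the file headers. A table of log2 values deposited by the authors was also read, whose columns were opposite in sign for all 39485 probes (medians 0.16 and -0.16), so only differences can be read from them. They followed the scanner files with a shift of 0.12, and the sources used here do not say how that scaling was chosen.

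Control spots (1377 per array) and outlier spots (73 and 85) were left out, repeat spots averaged on the log2 scale (39425 probes), and each array scaled to its 75th percentile. Probes were named by transcript accession from a RefSeq table (GRCm38.p6): 27506 (69.8%) matched. The array design uses build mm9, so coordinates are given for RefSeq promoters alone. Of all 39425 probes, 64.5% on the SPAD and 65.6% on the SVCD array were well above background, which was required of at least 50% of a probe's spots. Local background had a median of 28 on each array. A gene was represented by its detected probe with the highest mean signal. A gene detected on 1 array was set against the higher of its own dim value and the lowest signal well above background there (10.8 in SPAD, 8.60 in SVCD), and is given as "at least". Such a bound carries spot error too, 0.50 on the log2 scale for Cyp11a1, Hsd3b1, Hsd17b2 and Akr1c19, and is not a guaranteed minimum. With 1 array per group the number of arrays limits the precision, and no p-value was computed.

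The spot error was the SD of probes printed 10 times, in 6 bins of signal, divided by the square root of the number of spots for a repeated probe, from 0.34 and 0.37 in the dimmest bins of the SPAD and SVCD arrays to 0.05 and 0.06 in the brightest. The computation recovered planted changes in simulated data, which were copied from the SVCD signals with even noise. That simulation did not cover bounds, the larger error of dim spots, or arrays that differ in many genes. The members and lists were chosen with earlier results of these data known. Genes named are the members, the 4 genes of each list with the largest difference, the 2 genes on either side of Star in size of difference, and any said to be named after its value was seen. Listed genes said to be detected on neither array were likewise named after their values were seen. The listed symbols Sts, Akr1c20, Insl3, Cd68 and Muc16 were not matched to a probe by transcript, and Hsd17b8 was matched as H2-Ke6. Tools were Python 3.11.15, pandas 2.3.3, numpy 2.4.6 and, for the normexp correction, limma 3.58.1 in R 4.3.3.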

Additional observations from a re-analysis of the deposited data

How the results depend on the processing

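Over 10 alternatives, Star, Akr1c18 and Hsd11b1 stayed past 2-fold upwards in SPAD wherever their values were recomputed, with log2 ranges of 6.49 to 7.33, 3.14 to 3.98 and 3.02 to 3.86. Scaled to the spike-ins, 2 members were at least 2-fold lower, and the related genes had 6 higher and 23 lower with a median of -0.49. Over all genes 731 were higher and 5366 lower with a median of -0.77, so that 12.0% of the genes past 2-fold were higher instead of 51.9%. With normexp, 8 related genes were higher and 2 lower. The files hold no mean spot signal, so normexp was run on spot medians, a choice made after seeing the data, and not on the planned means. Without a filter on dim probes, 1 member (Cyp11a1) was lower by its measured -2.50. Of the 20884 genes then counted, 3371 (16.1%) were higher and 2627 (12.6%) lower. With the filter the shares were 14.4% and 13.3% of 14077 genes. At 1.5-fold, 5 members were higher and 1, Cyp11a1 by its bound, was lower, and 22 related genes were higher and 15 lower. Over the 14077 genes detected on both arrays, 3622 (25.7%) were then higher and 3055 (21.7%) lower. At 3-fold, 8 related genes were higher and 2 lower, beside 973 (6.91%) higher and 992 (7.05%) lower of the 14077. The median of the related genes otherwise ran from 0.19 with quantile normalization to 0.40 without a filter on dim probes. For Cyp11a1 the bound ran from -0.12 with normexp to -1.50 with spike-in scaling. The authors' deposited value table held values for the 8 members detected on both arrays, among them 7.33 for Star, 3.98 for Akr1c18 and 3.86 for Hsd11b1.

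No paired analysis was possible because each group has 1 array, and for the same reason leaving out a replicate was not run. Dim SVCD signals of 47.9 to 87.3 limit how precisely the Star, Akr1c18 and Hsd11b1 differences are known, and Cyp11a1 and Akr1b7 are at the limit of what these arrays detect. Of the single-gene and single-list values recomputed, 74 moved by less than the spot error and 34 by more.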

Other observations

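The genes that neighbour 4 members on the chromosome, the nearest 2 on each side in the RefSeq table that were detected on at least 1 array, showed differences of their own. They were picked by place, after the values were seen. Beside Star, Lsm1, an RNA decay gene, differed by 0.60 ± 0.08, Ash2l, of a histone methyltransferase complex, by -0.45 ± 0.08 and Bag4 by 0.14 ± 0.14. Kcnu1, a potassium channel gene, was detected in SPAD alone, with a bound of 1.66 on the log2 scale. Beside Fdx1, Arhgap20, a GTPase-activating protein gene, read 2928 in SPAD and 117 in SVCD (4.78 ± 0.12), a larger difference than that of Fdx1. The others near Fdx1 were Gm6981 (0.68 ± 0.08), Rdx (-0.40 ± 0.08) and Colca2, detected in SVCD alone (a bound of -0.26).

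Cyp11a1, at background in SPAD, lies among genes that were brighter there. Sema7a, a membrane-anchored semaphorin gene, read 7974 in SPAD and 897 in SVCD (3.28 ± 0.08), and Islr was detected in SPAD alone, with a bound of 3.20. Ubl7 differed by 0.72 ± 0.08, which is below 0 with spike-in scaling, and Islr2 by 1.02 ± 0.50. Beside Hsd11b1, G0s2, an inhibitor of adipose lipolysis, read 48.1 in SPAD and 39.1 in SVCD (0.43 ± 0.50) and A130010J15Rik 32.4 and 31.5 (0.17 ± 0.50), both within the spot error. Traf3ip3 and Lamb3 were detected in SVCD alone, with bounds of -0.42 and -1.88.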
